A study of Danio rerio with 12 samples.

Results

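Macrophages and neutrophils are the first white blood cells of the zebrafish larva. Both descend from myeloid progenitors and move through tissue by remodelling actin, macrophages clearing dying cells and debris and neutrophils carrying granules of antimicrobial enzymes to wounds and infections. Elmo proteins act together with DOCK proteins to activate the small GTPase Rac1, a switch for actin remodelling, migration and the engulfment of apoptotic cells. To examine which signal of these leukocytes whole larvae carried with and without functional elmo3, 10 widely used marker genes were read in every sample: mpeg1.1, csf1ra and marco for macrophages, mpx and lyz for neutrophils, spi1b for the myeloid lineage, lcp1 and coro1a for leukocytes in general, and the inducible matrix proteases mmp9 and mmp13a.

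The 12 samples were pools of 30 whole larvae collected at 120 hours post fertilization (hpf), 6 from elmo3+/+ and 6 from elmo3-/- zebrafish. Both genotypes carried the Tg(fli1:EGFP) reporter, which labels endothelial cells, and elmo3-/- larvae carried in addition a CRISPR/Cas9 frameshift deletion in an early exon of elmo3 that is present in every cell of the animal. No other treatment separated the groups according to the labels, and nothing in the labels says whether pools of a genotype came from separate clutches, so that p-values describe the spread between these pools. In bulk RNA of whole larvae, fewer cells of a type and less RNA per cell cannot be told apart.

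Of the 32520 genes in the files, 8 of the 10 markers matched exactly 1 row. A further 3 rows, all named MPEG1, stand for mpeg1.1 and its close relatives, and they could not be assigned to the single copies, so each is given by its Ensembl identifier. No row bore the name mpx. The closest were a pair of peroxidase rows with the mammalian-style name EPX (ENSDARG00000019521) and the name epx (ENSDARG00000012535), which are reported under these names as candidates for mpx without an assignment. This gave 13 rows, of which 11 passed the filter on low counts. The MPEG1 row ENSDARG00000078569, with 0 to 1 counts per pool, and the epx row ENSDARG00000012535, with 5 to 18 counts, did not.

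Libraries held 16851426 to 17577126 estimated counts, with 25242 to 25629 genes detected. The share of counts from 13 mitochondrially encoded genes was 6.59% to 8.99% in elmo3+/+ and 7.28% to 10.3% in elmo3-/- pools. The transcript of elmo3 itself had 1.26, 1.89 and 2.78 TPM, the deposited length-scaled transcript level (lowest, median and highest pool), in elmo3+/+ and 1.24, 2.01 and 2.63 TPM in elmo3-/-. Its log2 fold change was 0.03 ± 0.19 (SE, edgeR quasi-likelihood test, adjusted p = 0.967). The mutation is a short deletion that leaves most of the transcript to be counted, so this level does not check the genotype labels. Muscle and neuron transcripts were abundant in both genotypes, with medians of 3097 and 3103 TPM for ckma of muscle and 222 and 202 TPM for elavl3 of neurons in elmo3+/+ and elmo3-/-, respectively. Of 9 tested tissue markers, 5 had a log2 fold change below 0. Medians in elmo3+/+ and elmo3-/- were 1474 and 756 TPM for fabp10a of the liver and 262 and 126 TPM for prss1 of the pancreas. They were 26.6 and 16.5 TPM for ins and 20.2 and 13.2 TPM for myl7. None of the 9 passed the adjusted threshold.

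None of the 11 tested rows passed the threshold of an adjusted p-value under 0.05 between genotypes (edgeR quasi-likelihood test, Benjamini-Hochberg adjustment over 21127 genes), where 21 genes, or 0.0994%, passed. DESeq2 and limma on log2(TPM + 1) also called 0 of the 11. At an unadjusted p under 0.05, 5 rows had lower values in elmo3-/- by edgeR and none had higher ones. These were the EPX row ENSDARG00000019521, the MPEG1 row ENSDARG00000055290, lcp1, coro1a and mmp13a. The mmp13a row passed the count filter through elmo3+/+ alone, and without it the count was 4 of 10. Among all genes tested this threshold was met by 4.95% in the lower and 4.58% in the higher direction. DESeq2 also placed 5 rows there, against 4.79% of all genes in the lower direction, and limma on log2(TPM + 1) 3, against 7.38%. The edgeR count ranged from 2 to 6 when 1 pool was left out, and the share of all genes moved as well. It was 2.96% without elmo3+/+ replicate 4, where 2 rows were counted, and 7.73% without elmo3+/+ replicate 3, where 6 were counted. In each of these fits mmp13a was among the rows counted. A log2 fold change below 0 was found for 9 of the 11 rows and for 48.9% of all genes, and the median was -0.36 over the rows and 0.00 over all genes. The 9 rows and the median also include mmp13a. In no row were the genotypes free of overlap, against 0.431% of all genes. Several of the rows varied together across pools, so they are not separate pieces of evidence. The members were also chosen with earlier results of these data known.

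**Figure D1:**
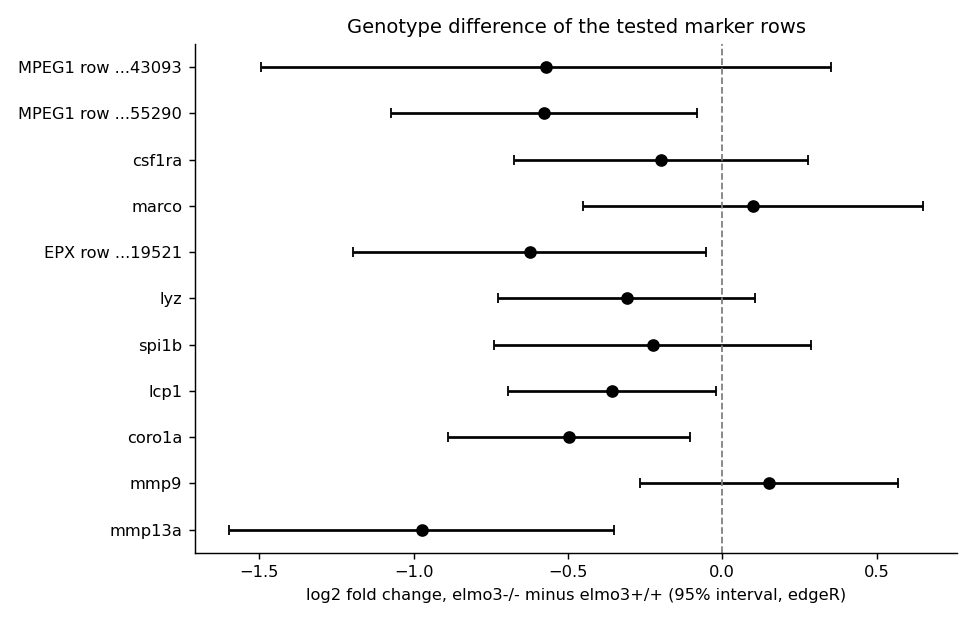
Log2 fold change of elmo3-/- against elmo3+/+ (horizontal axis) for the 11 tested marker rows, with the 95% interval of the edgeR fit; MPEG1 and EPX rows carry the last digits of their identifiers. Points run from -0.97 for mmp13a to 0.15 for mmp9, and no row passed the adjusted threshold.

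Macrophage markers were of low abundance. The mpeg1 genes encode perforin-like proteins of the phagosome, and mpeg1.1 is a widely used marker gene of macrophages in zebrafish. Row ENSDARG00000043093 had 0.892, 2.03 and 7.59 TPM (lowest, median and highest pool) in elmo3+/+ and 0.541, 1.62 and 3.53 TPM in elmo3-/-. The highest value belonged to elmo3+/+ replicate 4, with 271 counts, and all elmo3-/- pools except replicate 2 lay inside the elmo3+/+ range. The fitted log2 fold change was -0.57 ± 0.43 (SE, adjusted p = 0.674, edgeR), and without elmo3+/+ replicate 4 it was 5.1e-05.

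Row ENSDARG00000055290 had 0.559, 1.33 and 1.51 TPM in elmo3+/+ and 0.406, 0.738 and 1.07 TPM in elmo3-/-. Here elmo3+/+ replicate 1 was lowest in its genotype, and elmo3+/+ replicates 1 and 3 fell among the elmo3-/- pools. The level in elmo3-/- was 0.67 times that of elmo3+/+ (95% interval 0.475 to 0.945, adjusted p = 0.499, edgeR). When the 3 MPEG1 rows were summed, the ratio was 0.673 (0.402 to 1.13, adjusted p = 0.605, edgeR).

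csf1ra encodes the receptor for colony-stimulating factor 1, which macrophages and microglia need and which the yellow pigment cells (xanthophores) of the fish also express. Its level was 1.11, 1.59 and 2.45 TPM in elmo3+/+ and 0.842, 1.41 and 2.25 TPM in elmo3-/-. The ranges overlapped almost completely, with a ratio of 0.872 (95% interval 0.627 to 1.21, adjusted p = 0.788, edgeR).

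marco encodes a scavenger receptor of macrophages that binds bacteria. Pools of elmo3+/+ spread from 0.416 through a median of 1.08 to 1.36 TPM, while those of elmo3-/- lay close together at 0.899, 0.953 and 1.2 TPM. All elmo3-/- values fell inside the elmo3+/+ range. The ratio was 1.07 (95% interval 0.732 to 1.57, adjusted p = 0.920, edgeR), and the sign of its logarithm depended on elmo3+/+ replicate 3, the lowest pool, without which the log2 fold change was -0.06. The csf1ra paralog csf1rb had medians of 0.431 and 0.260 TPM in elmo3+/+ and elmo3-/- (log2 fold change -0.35 ± 0.33, adjusted p = 0.743, edgeR).

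**Figure D2:**
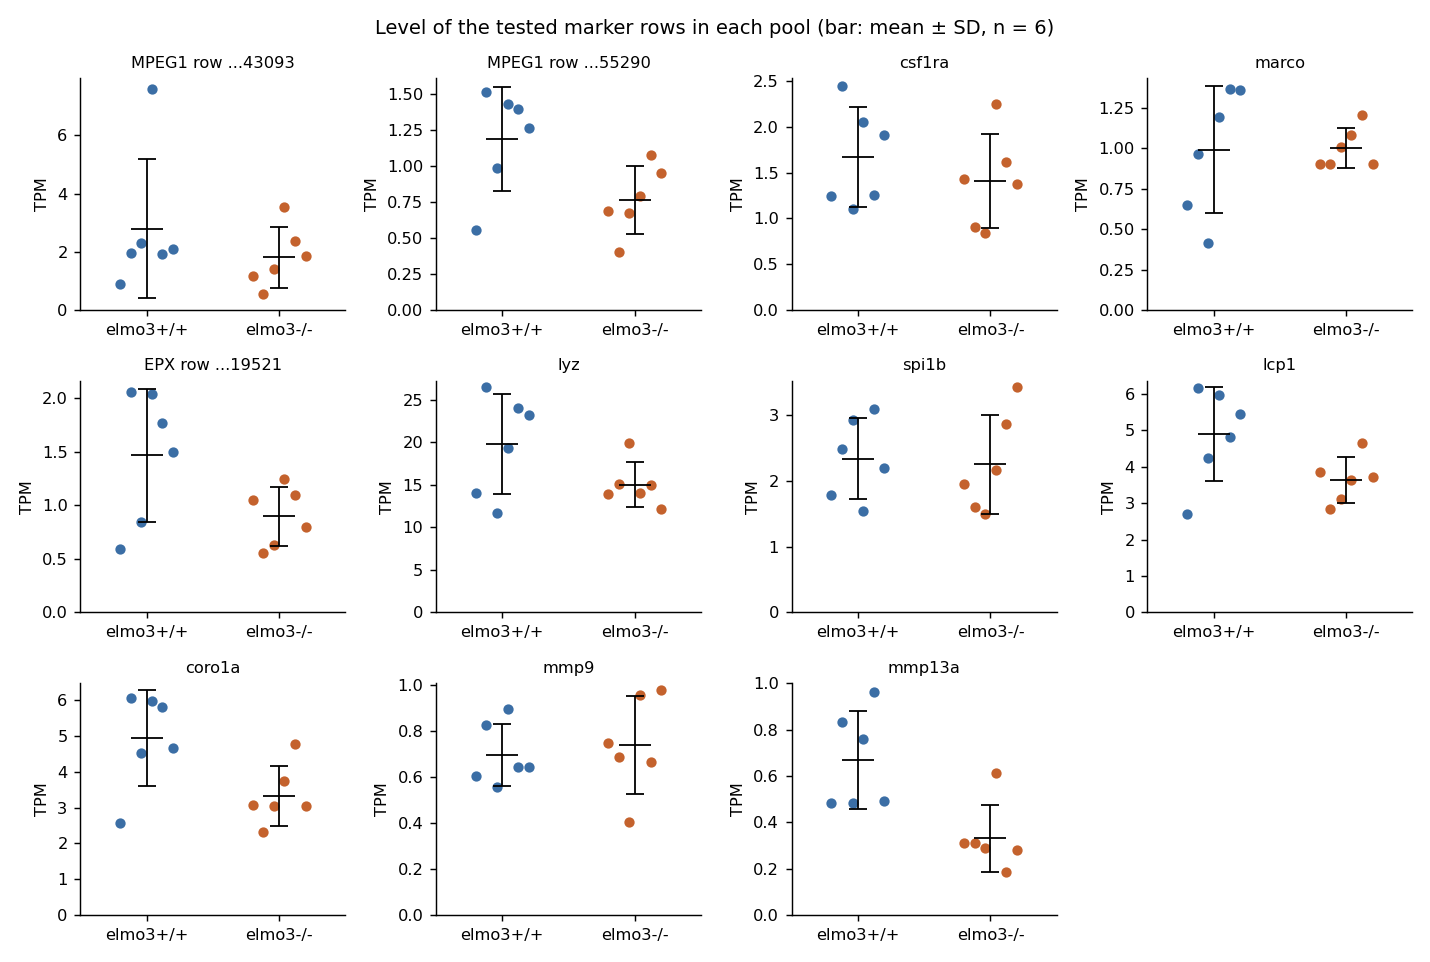
TPM (vertical axis, starting at 0) of each of the 11 tested rows in the 6 elmo3+/+ and 6 elmo3-/- pools, 1 point per pool, with the mean and SD as bars. The genotypes overlap in every panel, and the single high point of the first MPEG1 row is elmo3+/+ replicate 4 at 7.59 TPM.

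Among neutrophil markers, lyz was the most abundant of all rows. It encodes lysozyme, a granule enzyme that cleaves bacterial cell walls and that some larval macrophages also make. Pools held 11.6, 21.3 and 26.5 TPM in elmo3+/+ and 12.2, 14.5 and 19.9 TPM in elmo3-/-. Of the elmo3+/+ pools 3 stood above every elmo3-/- pool, and the lowest pool of all was elmo3+/+ replicate 3. The ratio was 0.807 (95% interval 0.604 to 1.08, adjusted p = 0.612, edgeR).

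Myeloperoxidase, the product of mpx, makes hypochlorous acid in neutrophil granules, and eosinophil peroxidase is its close relative. The EPX row ENSDARG00000019521 had 0.596, 1.64 and 2.06 TPM in elmo3+/+ and 0.559, 0.926 and 1.25 TPM in elmo3-/-. The elmo3+/+ values were divided, with replicates 1 and 3 inside the elmo3-/- range and the other pools above it. In the fit elmo3-/- had 0.649 times the elmo3+/+ level (95% interval 0.437 to 0.965, adjusted p = 0.504, edgeR). The epx row ENSDARG00000012535 was scarcer, at 0.120, 0.196 and 0.432 TPM in elmo3+/+ and 0.118, 0.197 and 0.335 TPM in elmo3-/-, and its medians were nearly equal. Summing both peroxidase rows gave a ratio of 0.68 (0.469 to 0.987, adjusted p = 0.516, edgeR).

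spi1b encodes PU.1, the transcription factor that directs progenitors to the myeloid fate. Its pools held 1.54, 2.35 and 3.09 TPM in elmo3+/+ and 1.5, 2.06 and 3.43 TPM in elmo3-/-, and the highest TPM value of the 12 belonged to elmo3-/- replicate 6. The ratio was 0.855 (95% interval 0.599 to 1.22, adjusted p = 0.773, edgeR). Its paralog spi1a was at a similar level, with medians of 1.81 and 1.63 TPM and a log2 fold change of -0.05 ± 0.16 (adjusted p = 0.927, edgeR).

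Both pan-leukocyte genes encode actin regulators. lcp1 encodes L-plastin, which bundles actin filaments, and coro1a encodes coronin, which acts on the branched actin network during migration and phagocytosis. The level of lcp1 was 2.71, 5.14 and 6.17 TPM in elmo3+/+ and 2.85, 3.67 and 4.66 TPM in elmo3-/-. Apart from replicates 1 and 3, the elmo3+/+ pools lay above all elmo3-/- pools. The ratio was 0.781 (95% interval 0.619 to 0.986, adjusted p = 0.509, edgeR).

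The level of coro1a was 2.57, 5.25 and 6.06 TPM in elmo3+/+ and 2.33, 3.06 and 4.78 TPM in elmo3-/-. Again elmo3+/+ replicate 1 was the lowest of its genotype, and 5 of the 6 elmo3-/- pools lay inside the elmo3+/+ range. In elmo3-/- the level was 0.709 times that of elmo3+/+ (95% interval 0.54 to 0.93, adjusted p = 0.499, edgeR). Over all alternatives its adjusted p lay between 0.144, without elmo3+/+ replicate 1, and 0.852.

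The proteases gave opposite signs. mmp9 encodes gelatinase B, which is induced in injured tissue and in activated leukocytes, and mmp13a encodes a collagenase found in myeloid cells and at wound margins. mmp9 had 0.555, 0.645 and 0.898 TPM in elmo3+/+ and 0.404, 0.719 and 0.979 TPM in elmo3-/-. The elmo3-/- pools enclosed the elmo3+/+ range on both sides, and the ratio was 1.11 (95% interval 0.832 to 1.48, adjusted p = 0.821, edgeR).

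mmp13a had 0.484, 0.626 and 0.961 TPM in elmo3+/+ and 0.184, 0.299 and 0.612 TPM in elmo3-/-. Only elmo3-/- replicate 4 reached into the elmo3+/+ range. The ratio of 0.509 (95% interval 0.331 to 0.785, adjusted p = 0.489, edgeR) rested on 10.6 to 21.6 counts per elmo3+/+ pool and 4 to 13.3 counts per elmo3-/- pool. The row passed the count filter through elmo3+/+, where 6 of 6 pools had at least 10 counts against 1 of 6 in elmo3-/-. The paralog mmp13b had medians of 0.815 and 1.0 TPM in elmo3+/+ and elmo3-/- (log2 fold change 0.30 ± 0.27, adjusted p = 0.726, edgeR).

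Ordered by mean TPM in elmo3+/+, lyz stood first at 19.8 ± 5.91 (SD, n = 6), 4.0 times coro1a, and exceeded coro1a in all 12 pools. coro1a (4.94 ± 1.34) and lcp1 (4.89 ± 1.29) could not be ordered, since coro1a was the higher in 3 of 6 elmo3+/+ and 2 of 6 elmo3-/- pools. The MPEG1 row ENSDARG00000043093 followed at 2.80 ± 2.40 on the strength of 1 pool, and it exceeded the next row, spi1b, in 1 of 6 pools of each genotype. Below spi1b came csf1ra, EPX, the MPEG1 row ENSDARG00000055290, marco, mmp9 and mmp13a, and in elmo3+/+ each of these neighbours differed by less than the SD of their log2 ratio across pools. On the scale of CPM (counts scaled to library size, not divided by transcript length), lcp1 ranked first at 8.53 CPM and lyz next at 6.70 CPM.

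The pools of 1 genotype varied widely. In elmo3+/+ the coefficient of variation was 15.9% for mmp9 and 81.7% for the MPEG1 row ENSDARG00000043093, with the other rows between, against a median of 13.7% over all genes tested. Counting error alone amounted to 8.13% for lcp1 and 26.0% for mmp13a in elmo3+/+. The spreads that did not exceed counting error were that of mmp9 in elmo3+/+ (15.9% against 19.4%) and that of marco in elmo3-/- (12.7% against 20.9%). For lcp1 the elmo3+/+ pools spread by 23.8% and the elmo3-/- pools by 14.0%, and for coro1a by 24.9% and 21.5%, respectively.

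Lowest and highest values, counted on CPM, recurred in some pools, which was not tested. Within elmo3+/+, replicate 1 was lowest in 5 of the 11 rows and replicate 3 in 4, whereas replicates 2, 4 and 5 together held the highest value in 10. Among elmo3-/- pools, replicate 2 was lowest in 5 rows, and replicates 4 and 5 were each highest in 4. The mitochondrial share of elmo3+/+ replicate 1 was 8.99%, against 6.59% to 7.19% in the other elmo3+/+ pools, and elmo3-/- replicate 2 had the highest share of all at 10.3%. elmo3-/- replicate 4 had 9.11%. The part of this share in the marker levels was not tested. Without elmo3+/+ replicate 1, 5 of 11 rows again had an unadjusted p under 0.05 in the lower direction, against 7.49% of all genes in that fit, and 0 were called. The rows counted there include mmp13a, which with all pools passed the count filter through elmo3+/+ alone.

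**Figure D3:**
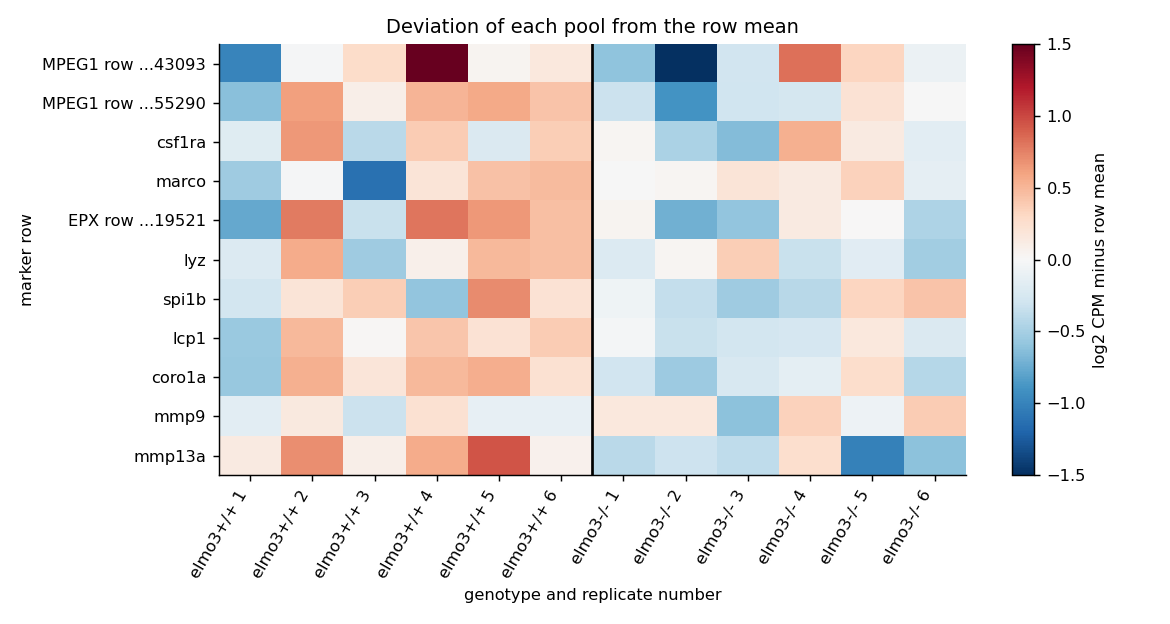
Deviation of each pool's log2 CPM from the row mean (colour scale, red above and blue below) for the 11 tested rows, with the 6 elmo3+/+ pools left and the 6 elmo3-/- pools right of the line. elmo3+/+ replicate 1 and elmo3-/- replicate 2 are below the mean in most rows, and the mmp9 row runs apart from the lcp1 and coro1a rows.

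To see whether markers of 1 cell type varied together, 7 pairs of markers were correlated across the 12 pools on log2 CPM, with permutation p-values and Benjamini-Hochberg adjustment over the 7. lcp1 and coro1a correlated with Pearson r = 0.91 (permutation p = 0.00011, adjusted 0.00077) and Spearman rho = 0.89 (permutation p = 0.00019, adjusted 0.00133). After the 2 pools farthest from the lcp1 median were left out r was 0.87, and within genotypes it was 0.92 in elmo3+/+ (exact permutation p = 0.0236) and 0.80 in elmo3-/- (exact permutation p = 0.0667).

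The summed peroxidase rows and the summed MPEG1 rows gave r = 0.74 (permutation p = 0.00451, adjusted 0.0158) and rho = 0.69 (permutation p = 0.0166, adjusted 0.0458), and r stayed at 0.74 without the 2 farthest pools. Within elmo3+/+ r was 0.74 (exact permutation p = 0.1125) and within elmo3-/- 0.62 (exact permutation p = 0.192). Within either genotype alone the test did not pass, while on deviations from the genotype means over all 12 pools r was 0.69 (adjusted permutation p = 0.0422). That permutation made no allowance for genotype means taken from the same pools, so its p may be too small.

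Summed MPEG1 and csf1ra had r = 0.60 (permutation p = 0.0383, adjusted 0.0893) and rho = 0.67 (permutation p = 0.0196, adjusted 0.0458), so the pair passed by rank but not by Pearson's r. r was 0.48 without the 2 farthest pools, 0.43 within elmo3+/+ (exact permutation p = 0.469) and 0.72 within elmo3-/- (exact permutation p = 0.101). For the summed peroxidase rows and lyz r was 0.51 (permutation p = 0.0935, adjusted 0.164) and rho 0.54 (permutation p = 0.0746, adjusted 0.105), with 0.45 after leaving out 2 pools. This pair had r = 0.76 within elmo3+/+ and -0.40 within elmo3-/- (exact permutation p = 0.0889 and 0.435), a difference between genotypes that was not tested.

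The other pairs did not pass. Summed MPEG1 and marco had r = 0.24 (permutation p = 0.432, adjusted 0.504) and rho = 0.56 (permutation p = 0.0616, adjusted 0.105), and r = 0.30 without 2 pools. For spi1b and lcp1 r was 0.36 (permutation p = 0.244, adjusted 0.342) and rho 0.28 (permutation p = 0.377, adjusted 0.440), and r was 0.62 without 2 pools. The proteases mmp9 and mmp13a had r = 0.06 (permutation p = 0.857, adjusted 0.857) and rho = -0.04 (permutation p = 0.903, adjusted 0.903), and r = -0.11 without 2 pools. Within genotypes, r of these 3 pairs was 0.38, 0.16 and 0.53 in elmo3+/+ and 0.39, 0.62 and 0.26 in elmo3-/-, with exact permutation p-values between 0.171 and 0.767.

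**Figure D4:**
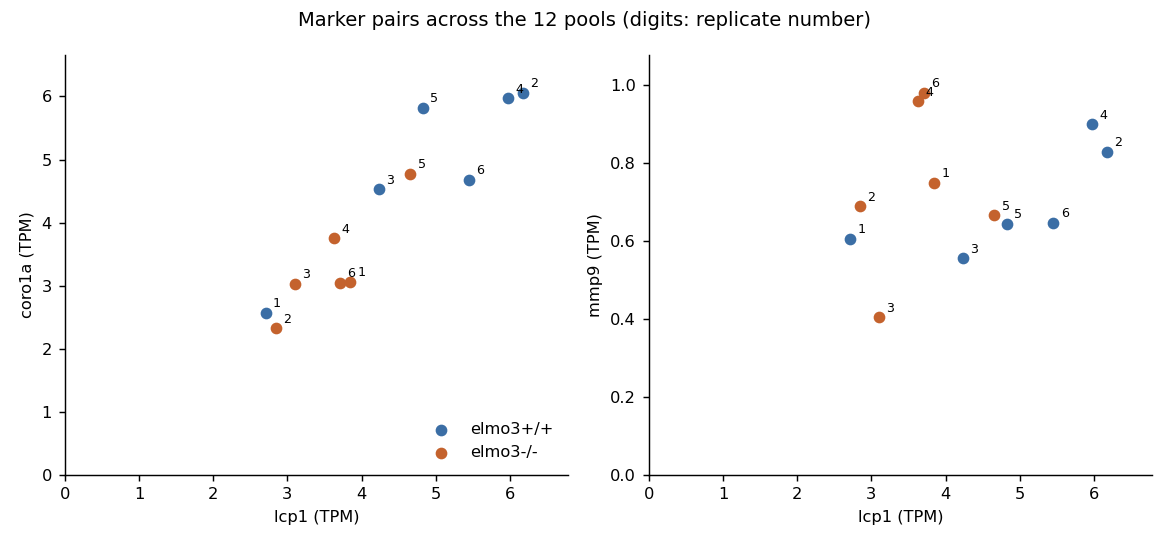
TPM of coro1a (left) and of mmp9 (right) against TPM of lcp1 in the 12 pools, with digits for the replicate number and colours for the genotype. coro1a rises with lcp1 across the pools of both genotypes (r = 0.91 on log2 CPM), while the elmo3-/- pools with the highest mmp9, replicates 4 and 6, have intermediate lcp1.

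Ratios within a pool compare 1 marker with another in the same larvae. The log2 ratio of the summed peroxidase to the summed MPEG1 rows in TPM was -1.94, -0.99 and -0.48 (lowest, median and highest pool) in elmo3+/+ and -1.52, -1.37 and -0.41 in elmo3-/-. The means were -1.13 ± 0.55 and -1.11 ± 0.53 (SD, n = 6 each), which differed by 0.02 (two-sided exact permutation test, p = 0.939, adjusted over 3 ratios 0.939). The ranges overlapped, with the lowest pool in elmo3+/+ and the highest in elmo3-/-.

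The log2 ratio of mmp9 to lcp1 was -3.08, -2.90 and -2.16 in elmo3+/+ and -2.94, -2.20 and -1.92 in elmo3-/-. The genotype means were -2.78 ± 0.32 for elmo3+/+ against -2.33 ± 0.45 for elmo3-/- (SD, n = 6 each), 0.45 higher in elmo3-/- (exact permutation p = 0.0758, adjusted 0.227). The difference did not pass the test. coro1a relative to lcp1 was -0.22, -0.01 and 0.27 in elmo3+/+ and -0.33, -0.16 and 0.05 in elmo3-/-, and the means of 0.01 ± 0.17 and -0.14 ± 0.18 (SD, n = 6 each) differed by -0.15 (exact permutation p = 0.1645, adjusted 0.247).

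Further genes used as markers of these cells were read from lists. Some were far more abundant than the members, with medians in elmo3+/+ of 155 TPM for apoeb, 134 for cotl1, 167 for cebpd and 53.0 for lgmn. The part of other cells in these levels was not tested. Of 22 macrophage and microglia genes, 19 were matched and 13 tested, of which 9 had a log2 fold change below 0 and the median was -0.17. None was called. The smallest p in the lower direction belonged to cxcr3.2, a chemokine receptor of macrophages, with 0.708, 0.895 and 1.53 TPM in elmo3+/+ and 0.311, 0.639 and 0.934 TPM in elmo3-/- (log2 fold change -0.55 ± 0.24, adjusted p = 0.504, edgeR). In the higher direction it was the lysosomal protease gene lgmn (0.09 ± 0.08, adjusted p = 0.742, edgeR). cxcr3.2 was the only gene of this list with an unadjusted p under 0.05.

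Of 16 neutrophil genes, 12 were matched and 7 tested. 6 of the 7 had a log2 fold change below 0 and the median was -0.11. lta4h, whose product makes the neutrophil attractant leukotriene B4, had 10.1, 19.6 and 29.9 TPM in elmo3+/+ and 7.87, 10.1 and 14.5 TPM in elmo3-/- (log2 fold change -0.63 ± 0.20, adjusted p = 0.489, edgeR). cebp1, a transcription factor of granulocytes, was highest in the other direction (0.30 ± 0.20, adjusted p = 0.629, edgeR). None of the 7 was called.

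The list of pan-leukocyte and phagocyte oxidase genes had the largest count at an unadjusted p under 0.05, with 6 of 15 tested genes in the lower direction and 0 in the higher, against 4.95% and 4.58% of all genes. The list was chosen with earlier results of these data known, so this count is not independent evidence. 10 of the 15 had a log2 fold change below 0, and the median was -0.18. ptprc, which encodes the leukocyte phosphatase CD45, had 1.30, 1.68 and 2.76 TPM in elmo3+/+ and 0.544, 0.982 and 1.57 TPM in elmo3-/- (log2 fold change -0.67 ± 0.19, adjusted p = 0.489, edgeR). Only part of the elmo3-/- range reached that of elmo3+/+. The other 5, named after their values were seen, were ptpn6 (-0.55), plek (-0.50), ncf1 (-0.44), arpc1b (-0.35) and hcls1 (-0.31), each a log2 fold change. They encode a signalling phosphatase, pleckstrin, a subunit of the phagocyte oxidase, a subunit of the actin-branching Arp2/3 complex and a cortactin-like actin regulator. For plek the highest TPM value nevertheless belonged to an elmo3-/- pool, at 2.06 TPM against at most 1.08 TPM in elmo3+/+. In the higher direction laptm5, a lysosomal membrane protein of leukocytes, had the smallest p (0.18 ± 0.14, adjusted p = 0.667, edgeR). No gene of the list was called, and the count in the lower direction was 4 to 6 when 1 pool was left out, against 2.96% to 7.73% of all genes in those fits.

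The list named myeloid transcription factors and receptors held no receptor gene. Beside transcription factors it held the ligand genes csf1a, csf1b, il34, csf3a and csf3b, of which csf3a and csf3b were too low to be tested. Its tested genes differed little. Of 14 genes, 12 were tested, 8 had a log2 fold change below 0 and the median was -0.09. myb, a factor of blood progenitors, had -0.24 ± 0.11 (adjusted p = 0.513, edgeR) and cebpd 0.17 ± 0.09 (adjusted p = 0.569, edgeR). Among inflammatory and matrix protease genes, 11 of 20 were matched and 6 tested, with a median of -0.27. mmp2, a gelatinase of connective tissue, had 23.6, 28.8 and 41.4 TPM in elmo3+/+ and 18.5, 24.1 and 30.0 TPM in elmo3-/- (-0.32 ± 0.13, adjusted p = 0.499, edgeR).

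il1b, the cytokine interleukin 1 beta, gave the highest positive value of that list, with 0.662, 0.960 and 2.18 TPM in elmo3+/+ and 1.2, 1.54 and 1.99 TPM in elmo3-/- (0.46 ± 0.23, adjusted p = 0.543, edgeR). The highest pool of all was nevertheless an elmo3+/+ pool. The cytokine genes tnfa, tnfb, il6, il10 and il11a were too low to be tested.

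**Figure D5:**
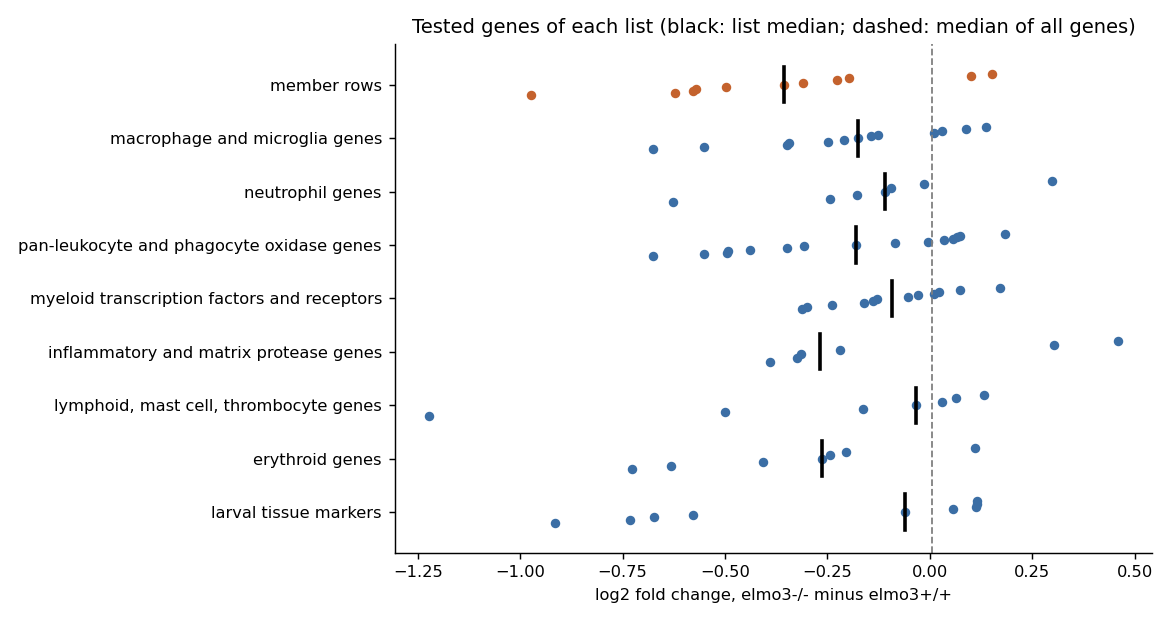
Log2 fold change of elmo3-/- against elmo3+/+ (horizontal axis) for every tested gene of each list, 1 point per gene, with the list median as a black bar and the median of all 21127 genes as a dashed line. The median of the 11 member rows, mmp13a included, is -0.36. That of the pan-leukocyte list is -0.18, of the inflammatory and matrix protease list -0.27 and of the erythroid list -0.26. The macrophage and neutrophil lists have -0.17 and -0.11. The myeloid, lymphoid and larval tissue lists have -0.09, -0.03 and -0.06, and all genes 0.00.

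Markers of other cells stood beside these values. The list of lymphoid, mast cell and thrombocyte genes had 7 tested genes with a median log2 fold change of -0.03. Its mast cell gene cpa5 matched no row, so mast cells were not covered. Medians in elmo3+/+ were 98.5 TPM for tox and 87.8 TPM for gata3, and the part of other tissues in them was not tested. rag1, the recombinase of developing lymphocytes, had 0.345, 0.729 and 1.43 TPM in elmo3+/+ and 0.183, 0.264 and 0.658 TPM in elmo3-/- (-1.22 ± 0.35, adjusted p = 0.489, edgeR). rag2, named after its values were seen, had medians of 0.476 TPM in elmo3+/+ and 0.366 TPM in elmo3-/- (-0.16 ± 0.24, adjusted p = 0.844, edgeR). gata3 had 0.13 ± 0.09 (adjusted p = 0.623, edgeR). Over its 14 matched genes this list summed to 342 to 414 CPM in elmo3+/+ and 358.5 to 458 CPM in elmo3-/-. A large part of this sum was gata3, with means of 170 CPM in elmo3+/+ and 187 CPM in elmo3-/-. For rag1 the means were 2.79 and 1.19 CPM, so the sum says little about the scarce genes of the list. No gene of the list was at 0 in every pool, but lck, cd4-1, cd8a, zap70, cd79a, itga2b and mpl were too low to be tested.

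The 7 erythroid genes summed to 228 to 680 CPM in elmo3+/+ and 226 to 485 CPM in elmo3-/-, and 6 of them had a log2 fold change below 0 (median -0.26). The globin gene hbae3 had -0.63 ± 0.29 (adjusted p = 0.520, edgeR) and tal1 0.11 ± 0.10 (adjusted p = 0.736, edgeR). The 9 larval tissue markers summed to 14684 to 16780 CPM in elmo3+/+ and 13164 to 16961 CPM in elmo3-/-. Of these markers 3, or 33.3%, had an unadjusted p under 0.05 in the lower direction, against 4.95% of all genes tested. These were fabp10a of the liver (-0.92 ± 0.31, adjusted p = 0.490, edgeR), myl7 of the heart (-0.58 ± 0.24, adjusted p = 0.499, edgeR) and ins of the pancreas (-0.73 ± 0.31, adjusted p = 0.504, edgeR), the last pair being named after their values were seen. fabp10a ranged from 501 to 2252 TPM in elmo3+/+ and from 283 to 1033 TPM in elmo3-/-. Endothelial cdh5 had 0.11 ± 0.07 (adjusted p = 0.596, edgeR). None of these lists held a called gene. Values below 0 occurred in these lists as well, and the part of other cell types in the marker levels was not tested.

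As a description, the genes whose log2 CPM followed a marker most closely over the 12 pools were listed among the 16624 genes with a mean count of at least 50. For the summed MPEG1 rows they were zgc:111983, si:ch211-207n23.2 and NIPAL4 (Pearson r = 0.93 each). The summed peroxidase rows were followed by MYH11, STXBP2 and FN1 (r = 0.98, 0.98 and 0.97), and lcp1 and coro1a ranked 366 and 544 for them with r = 0.88 and 0.86. Other members ranked lower for these rows: csf1ra 1530 (r = 0.75), the MPEG1 row ENSDARG00000043093 2478 (0.65) and lyz 3750 (0.51). The genes closest to mmp9 were lcor, reep1 and DUSP8 (r = 0.94, 0.91 and 0.89). All points share the depth and makeup of the same libraries.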

How the data were processed

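RNA of homogenized whole larvae was purified on columns and sequenced on a BGISEQ-500. The submitters' processing notes name Trim Galore 0.6.4, kallisto 0.4.6 and the build GRCz11. For each sample the authors deposited estimated counts per gene, not scaled between samples, of which 63.0% were whole numbers, and a table of TPM values, which are divided by transcript length. Counts were rounded. edgeR 4.0.16 in R 4.3.3 fitted genotype with TMM scaling and filterByExpr, as described in the report. A positive log2 fold change means a higher value in elmo3-/-. Log2 CPM used a prior count of 2. Total counts were 16851426 to 17577126, so that 3 counts correspond to 0.171 to 0.178 CPM, a conversion by total count that measures no error.

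Symbols came from an identifier table (29201 of 32520, 89.8%) and RefSeq synonyms of assembly GRCz12tu. Rows sharing a name were summed for ratios and correlations. Single ratios were tested over all 462 divisions of the samples and correlations with 100000 permutations. The 10 members are always named. From each list the gene with the smallest p in each direction is named, as are the 4 paralogs mpeg1.2 (not separable among the MPEG1 rows), spi1a, csf1rb and mmp13b, elmo3, and the 3 genes most like 3 of the members. Members and lists were chosen with earlier results of these data known. Alternatives were DESeq2 1.42.0, other scalings and filters, limma 3.58.1 on log2(TPM + 1) and log2(TPM + 0.1), a replicate block and leaving out each sample. Single rows in place of sums, and list counts without elmo3+/+ replicate 1, were added after the data were seen. The fit was also run on simulated data. There genes were drawn independently and the changed ones had a mean count of at least 50. That run therefore says little about scarce marker rows or rows that vary together.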

Additional observations from a re-analysis of the deposited data

Results flagged for a closer look

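Of 34 sets of 6 values examined (the 11 rows in TPM, the 3 ratios and 3 library measures in each genotype), 3 held a pool whose gap to its nearest neighbour exceeded the critical share of the range, where chance gives about 1 in 20. elmo3+/+ replicate 4 had 7.59 TPM of the MPEG1 row ENSDARG00000043093, with 0.892 to 2.30 TPM in the other elmo3+/+ pools, and the other MPEG1 row did not set this pool apart. elmo3-/- replicate 4 had 0.612 TPM of mmp13a, against 0.184 to 0.313 TPM in the other elmo3-/- pools. The mitochondrial share of elmo3+/+ replicate 1 was 8.99%, against 6.59% to 7.19% in the rest of its genotype.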

How the results depend on the processing

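The number of members called was 0 under all 21 alternatives. The number of genes called was 21, and 49 with DESeq2. Of 228 alternative fold changes of members 2 had the opposite sign and 0 passed the threshold. Leaving out 1 pool gave log2 fold changes of -0.84 to 5.1e-05 for the MPEG1 row ENSDARG00000043093, the upper value without elmo3+/+ replicate 4, and of -0.059 to 0.23 for marco, the lower value without elmo3+/+ replicate 3. The peroxidase to MPEG1 ratio, which did not differ, ranged from -0.14 to 0.15 when 1 pool was left out, and its difference was -0.10 and -0.00039 with the EPX row set against the single MPEG1 rows ENSDARG00000043093 and ENSDARG00000055290. On log2(TPM + 1), 2 correlations passed that had not, summed MPEG1 with csf1ra (r = 0.68, adjusted permutation p = 0.0307) and peroxidase with lyz (r = 0.65, adjusted permutation p = 0.0423). With single rows, r of EPX and MPEG1 was 0.66 for ENSDARG00000043093 and 0.86 for ENSDARG00000055290.

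Same-numbered samples are separate pools, and their correlations of deviations from the genotype means ran from -0.29 to 0.39, so that the numbers were not taken to pair the samples. With the replicate number as a block, 17 genes and 0 members were called.

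Without elmo3+/+ replicate 1, list counts in the lower direction at an unadjusted p under 0.05 were 3 of 13 for macrophage, 2 of 8 for neutrophil and 6 of 15 for pan-leukocyte genes, where 7.49% of all genes met it. With all pools the counts were 1 of 13, 1 of 7 and 6 of 15, against 4.95% of all genes. Over all fits without 1 pool they ranged from 0 to 3, from 1 to 2 and from 4 to 6. In those fits 2.96% to 7.73% of all genes met the threshold. Depth limits the scarce rows: mmp13a, mmp9 and marco had 4 to 36 counts per pool.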
